A study of Mus musculus with 15 samples.

Results

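IgE plasma cells made from cultured mouse B cells were compared with the day 6 culture they came from, 3 RNA-seq libraries against 3 of the 15 in the series, chosen by the group named in each library's title. All cells were wild-type mouse B cells that had grown for 6 days on 40LB cells with IL-4 at 100 ng/ml. 40LB cells are fibroblasts engineered to display CD40 ligand and BAFF, signals that B cells otherwise receive from T cells and stroma. The day 6 group (D6) was the whole culture, not sorted, so it can hold cells of every isotype and feeder cells. The IgE plasma cell group (IgE PC) was taken on day 8, after 2 further days without feeders or stimulation, and was sorted; the markers of the sort are not given in the sources used here. The comparison therefore covers time, withdrawal of the feeder signals, sorting and differentiation at once, and these cannot be told apart in it. Values are set beside IgE cells of the same day that had not become plasma cells (IgE iGC) and beside IgG1 plasma cells (IgG1 PC), 3 libraries each. The titles call the libraries biological replicates and do not say whether a shared number marks a shared animal.

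A plasma cell is the antibody-secreting end stage of the B cell lineage. The transcription factors IRF4 and BLIMP-1, encoded by Prdm1, switch off the B cell programme, and XBP1 enlarges the endoplasmic reticulum (ER) so that large amounts of antibody can be folded and exported. IgE is the antibody class of allergy, and B cells given CD40 ligand and IL-4 can switch to it.

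Deposited expected counts summed to between 34688052 and 39168908 per library in D6 and between 37559580 and 43438021 in IgE PC. Replicates correlated at 0.9908 to 0.9926 in D6 and 0.9894 to 0.9916 in IgE PC (Pearson r of log2 values across genes, which are not independent replicates), and every pair differed by more than sampling noise. Levels are CPM, the usual counts relative to a fixed library total, on TMM-scaled library sizes, and changes are log2 fold changes of IgE PC minus D6 from edgeR's quasi-likelihood test, called at a Benjamini-Hochberg adjusted p under 0.05. Of 15692 genes tested, 11983 were called (76.4%), 5792 of them higher (36.9%) and 6191 lower (39.5%) in IgE PC. At least 2-fold changes numbered 2845 higher (18.1%) and 3662 lower (23.3%), and the median change of all genes was -0.04. The 3 libraries of one group lay wholly above those of the other for 82.4% of genes. A call alone is therefore the usual state of a gene here, and the counts of each gene group below are read against these shares. The direction of small changes rests on the scaling: with libraries scaled by total count the median of all genes moved to -0.57, and 26.8% of the calls were higher against 48.3% with TMM.

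**Figure D1:**
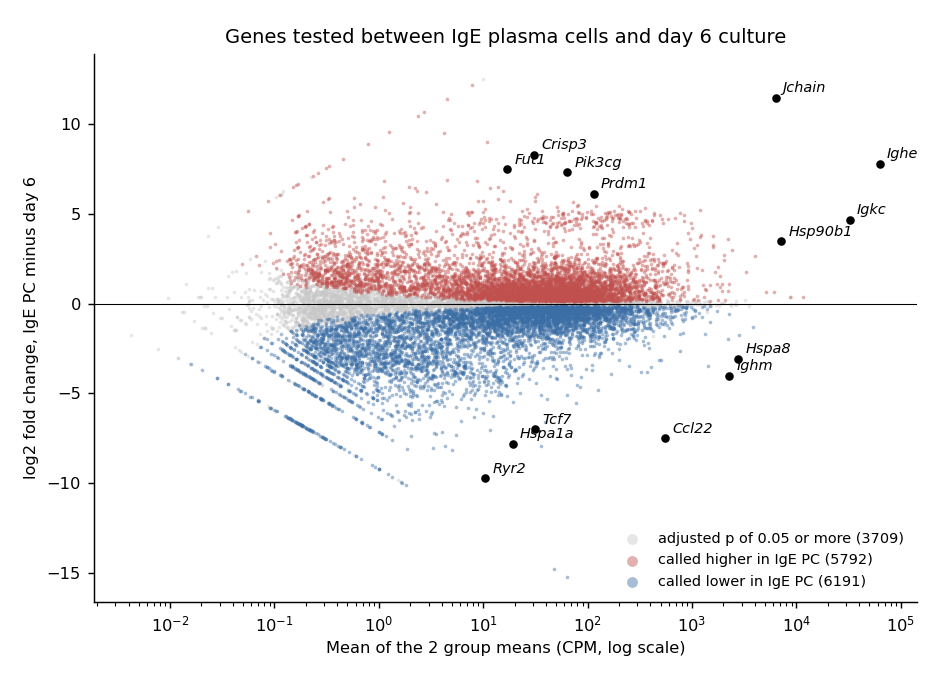
Each point is 1 of the 15692 genes tested, with the mean of the D6 and IgE PC levels on the horizontal log axis (CPM) and the log2 fold change on the vertical axis; red and blue points were called higher and lower. Ighe and Igkc lie at the far right, and of the genes labelled in the plot Jchain lies highest and Ryr2 lowest.

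The labels were checked against marker genes. Of the plasma cell markers, Jchain, Prdm1, Irf4, Xbp1, Sdc1 and Tnfrsf17 were each higher in every IgE PC library than in any D6 library. Slamf7 was not, with a log2 fold change of -0.20. The B cell markers Ms4a1, Pax5, Cd79a, Cd79b and Cd74 were detected in every IgE PC library, which says little of their change. Against D6 their directions differed, as given below. Pax5 was lower, and Cd79a, Cd79b and Cd74 were called higher, with calls that depended on the scaling. Feeder, T cell and myeloid markers are given with the genes that fell.

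Antibody genes made up a small part of the day 6 RNA and a large part of the IgE PC RNA. Immunoglobulin genes, Jchain included, took 1.48%, 1.42% and 1.40% of the counts of the D6 libraries and 19.8%, 19.99% and 21.5% of those of IgE PC. The groups did not overlap, and their difference was 18.98 percentage points (exact permutation p = 0.1, two-sided, the smallest that 3 against 3 allows; 0.1 after Benjamini-Hochberg adjustment over 20 shares). In a single library the 95% Wilson interval is narrow, 19.75% to 19.77% in IgE PC replicate 1; it covers counting error only. In IgE iGC of the same day the share was 1.61% ± 0.0228 (SD, n = 3).

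Ighe (ENSMUSG00000087642, GRCm38 chr12:113269260-113273248, minus strand), the constant region of IgE, stood at 587, 546 and 569.8 CPM in D6. Its level was 120000, 120600 and 136300 CPM in the IgE PC libraries, a log2 fold change of 7.79 ± 0.17 (SE; adjusted p = 8.68e-15). IgE iGC held a mean of 6072 CPM, so most of the distance from day 6 lay between the 2 IgE groups of day 8, which differed by 4.37. Igkc, the kappa light chain constant region, went from 2393 to 2541 CPM up to 59360 to 68690 CPM (4.68 ± 0.16). Jchain, whose product joins antibodies of other classes into polymers, had 3.52, 3.58 and 6.34 CPM in D6 against 12380, 11620 and 13930 CPM in IgE PC, the largest change of the antibody genes named (11.47 ± 0.27). All 3 genes were higher in every IgE PC library than in any D6 library, also for the D6 library with the most Jchain.

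The constant regions of IgM, IgD and IgG1 moved the other way. IgE PC is named by its isotype and D6 can hold cells of every isotype. These directions and the rise of Ighe are therefore no independent result. Ighm, the IgM constant region, fell from 4112 to 4442 CPM in D6 to 254 to 278 CPM in IgE PC (-4.01 ± 0.10), and Ighd, that of IgD, from 19.8 to 25.8 CPM to 0.347 to 0.638 CPM (-5.42 ± 0.28). Ighg1, that of IgG1, was 2740 ± 107 CPM in D6 and 1821 ± 106 CPM in IgE PC (-0.59 ± 0.13, adjusted p = 0.000741), far from the mean of 85550 CPM in IgG1 PC.

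**Figure D2:**
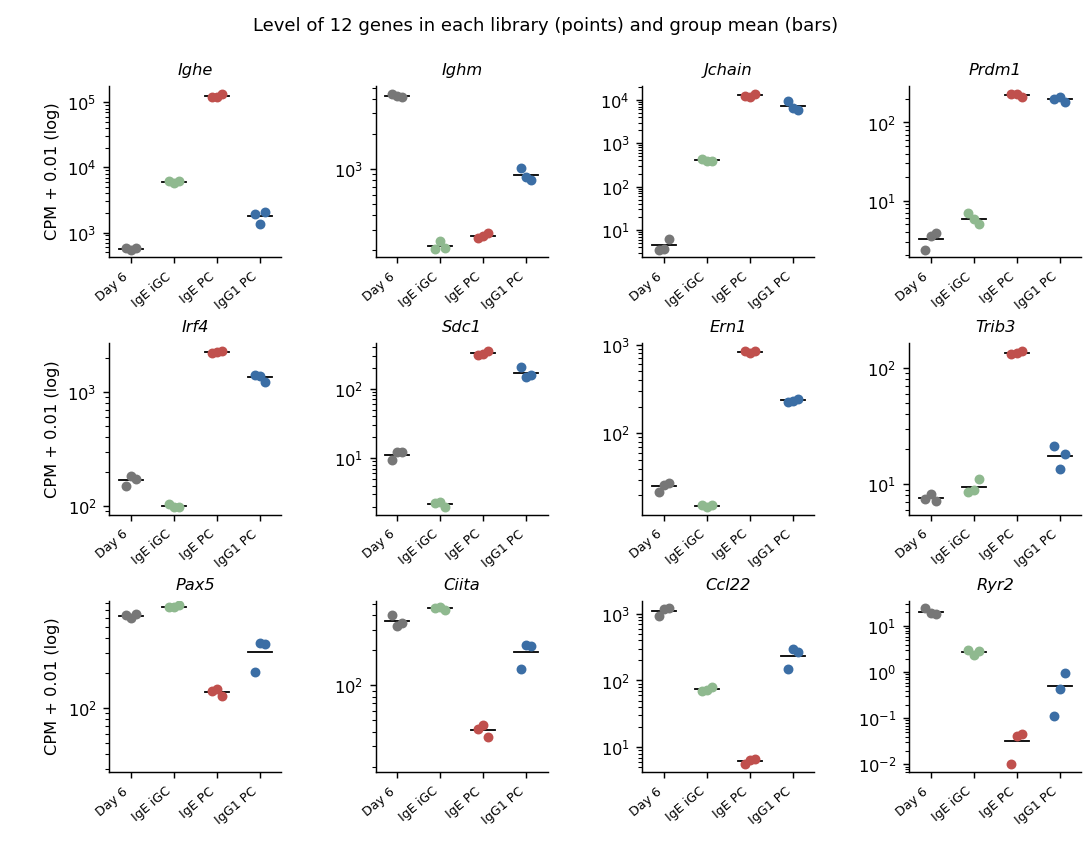
Level of 12 genes in each library of D6, IgE iGC, IgE PC and IgG1 PC (points; CPM + 0.01 on a log axis) with the group mean as a bar. In Prdm1, Irf4, Sdc1, Ern1 and Trib3 the IgE PC libraries lie above D6 and IgE iGC, and in Pax5, Ciita, Ccl22 and Ryr2 below all other groups shown.

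The transcription factors and RNA regulators of plasma cells rose nearly as a group. Of 10 listed regulators tested, 9 were called higher and 1 lower, with a median change of 3.16. Prdm1 (ENSMUSG00000038151, GRCm38 chr10:44437177-44528501, minus strand) had 2.36, 3.48 and 3.86 CPM in D6 and 234, 231 and 211 CPM in IgE PC (6.13 ± 0.14, adjusted p = 2.45e-14). The 3 IgE PC libraries were alike and far above each D6 library. IgE iGC stood at 5.89 CPM and IgG1 PC at 198 CPM; the difference from IgG1 PC, 0.19, was not called (adjusted p = 0.152).

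Irf4, the factor that commits B cells to this fate at high dose, rose from 150, 184 and 174 CPM to 2211, 2230 and 2294 CPM (3.73 ± 0.08) and was 0.74 higher than in IgG1 PC (adjusted p = 5.18e-07). Xbp1 rose from a mean of 301 to 1905 CPM (2.66 ± 0.12), and its difference from IgG1 PC, 0.01, was not called (adjusted p = 0.939). The secretory factors Bhlha15 (3.77), which encodes MIST1, and Creb3l2 (3.96) rose, as did Tent5c (3.53), a poly(A) polymerase that lengthens antibody transcripts, and Ell2 (2.80), an elongation factor that favours the secreted form of the heavy chain. The IgE iGC means of these 4 genes were below those of D6, with Bhlha15 at 2.64 CPM against 23.1 CPM. Pou2af1, a coactivator already abundant on day 6, rose by 1.02. Ikzf3, which encodes Aiolos, was the member that fell (-0.55).

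Surface molecules of plasma cells were less uniform: 14 of 21 were called higher, 4 lower and 3 not at all, with a median of 2.45. Sdc1, the plasma cell antigen CD138, rose from 9.46, 12.1 and 12.2 CPM to 311, 317 and 350 CPM (4.86 ± 0.15). Its level is no independent result if the sort used CD138, which the sources used here do not say. Tnfrsf17, the survival receptor BCMA, had 1 count in all D6 libraries together and 7.75, 8.24 and 9.10 CPM in IgE PC; the ratio was 1050, with a 95% counting interval from 187 to 41400. Cd93, which helps keep plasma cells in the bone marrow, rose from 27.4 to 33.2 CPM to 916 to 986 CPM (4.96 ± 0.08) and was 1.00 higher than in IgG1 PC (adjusted p = 1.03e-08).

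The inhibitory receptor Tigit (5.10), the integrin chain Itga4 (2.95), the costimulatory receptor Cd28 (2.46) and the amino acid transporter chain Slc3a2 (3.93) also rose. Ly6c1 (-3.40), Ly6k (-1.97) and Cd9 (-0.87) fell. The fourth member called lower, Slamf7, lost its call with scaling without immunoglobulin genes (-0.105, adjusted p = 0.215) and without D6 replicate 2 or 3 or IgE PC replicate 2 or 3 (adjusted p = 0.0621 to 0.275). Cd38 (-0.14, adjusted p = 0.306) and Cd44 (-0.11, adjusted p = 0.0907) were not called. Both were called lower with total count scaling (-0.67 and -0.64) and on TPM values (-0.845 and -0.935), and Cd44 also without D6 replicate 1 (-0.145, adjusted p = 0.042).

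Among the 15 largest rises was Crisp3, which encodes a secreted cysteine-rich protein (from 0.119 to 0.254 CPM up to 53.6 to 66.3 CPM, 8.30 ± 0.24). Fut1, a fucosyltransferase, followed with 0.159 to 0.213 CPM in D6 and 33.1 to 34.8 CPM in IgE PC (7.51). Pik3cg (ENSMUSG00000020573, GRCm38 chr12:32173473-32208659, minus strand), the catalytic subunit of PI3 kinase gamma, had 0.749, 0.806 and 0.787 CPM in D6 and 128, 120 and 132 CPM in IgE PC (7.34 ± 0.09, adjusted p = 5.91e-17). These genes were all but silent in D6, and the spread among IgE PC libraries was small beside the change. Crisp3, Akap6, Fut1 and Sema4g, a semaphorin, were also called higher in IgE PC than in IgG1 PC, by 2.42, 2.10, 1.85 and 1.69. H2-T24 (1.16), Lrrn3 (0.85), Gpm6a (0.75), Pik3cg (0.72), Oosp1 (0.64), Ly6c2 (0.48) and Cpeb3 (0.23) were as well. Of the 15 largest rises, only Hist1h2ao, Nuggc, Prdm1 and Sspn were not called in this comparison. Of all genes, 27.4% were called higher in it.

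Others of the 15 largest rises were Ly6c2 (6.82), Nuggc (6.51), Gpm6a (6.42), Lrrn3 (6.30), Sema4g (6.10), H2-T24 (5.93), Sspn (5.82), Akap6 (5.74), Oosp1 (5.70) and Cpeb3 (5.69). Of these, Nuggc and Sspn were also high in IgE iGC, at means of 32.2 and 30.8 CPM, from which IgE PC differed by -0.23 and -0.18. Cpeb3, an RNA-binding regulator of translation, and Akap6, a scaffold of protein kinase A, showed the opposite, with 0.905 and 0.894 CPM in IgE iGC. Ly6c2 and H2-T24 have near-identical relatives, and their values are uncertain because reads were divided among copies in 15 and 12 of the 15 libraries. Hist1h2ao, a histone gene of a repeated cluster, had 0 counts in D6 and 1434 in IgE PC. Its counts were fractional in 9 libraries. It stood at 1.75, 5.80 and 0 CPM in the IgE iGC libraries and at 3.57, 0 and 3.28 CPM in IgG1 PC. Because its reads can be divided among copies, a count of 0 gives no bound, and no fold is given.

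Genes of the unfolded protein response, which senses and relieves crowding of the ER with unfolded protein, were higher almost without exception. Of 32 tested, 31 were called higher, 29 of them at least 2-fold, with a median of 2.30 beside -0.04 for all genes. Among the sensors and factors, Ern1 (ENSMUSG00000020715, GRCm38 chr11:106394650-106487852, minus strand), which encodes the sensor IRE1 alpha that splices Xbp1 RNA, rose most. It had 22.0, 26.4 and 27.9 CPM in D6 and 847, 808 and 843 CPM in IgE PC (5.03 ± 0.09, adjusted p = 8.77e-16). Atf6 (2.78) and Eif2ak3 (2.19), which encodes the sensor PERK, rose less.

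The chaperones and folding enzymes moved from abundant to among the most abundant transcripts outside the antibody genes. Hsp90b1, the chaperone GRP94, stood at 1135, 1190 and 1181 CPM in D6 and at 13000, 12570 and 13640 CPM in IgE PC (3.48 ± 0.11). Hspa5 (ENSMUSG00000026864), the chaperone BiP, went from 1036, 1097 and 1128 CPM to 6886, 6750 and 7235 CPM (2.68 ± 0.10). Both groups were tight and widely separated. Pdia4 (3.61), Dnajb9 (3.71), Creld2 (3.65), Dnajc3 (3.37), Txndc5 (3.00) and Calr (1.75), which fold client proteins or assist the chaperones, rose too. Canx, the lectin chaperone calnexin, was the single member not called: 924 to 979 CPM in D6 against 935 to 1041 CPM in IgE PC (0.05, adjusted p = 0.513), and it turned to -0.49 with total count scaling and -0.69 on TPM values.

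The promoters of these genes were read for the ER stress response element (ERSE), searched as CCAAT, any 9 bases and CCACG on both strands of the 300 bases from 250 before to 50 after each gene's start in RefSeq (GRCm38.p6). A match was present in 8 of 29 promoters of the unfolded protein response list (27.6%) and in 2 of 18 of the degradation list described next (11.1%), against 37 of all 27025 genes in the table (0.137%). It was in 0 of 26 promoters of the translocon and glycosylation list and 0 of 33 of the ER to Golgi list. The stretches that follow are shown because they carry the element in genes of strong, moderate and no change; capitals mark the fixed letters of the element, which reads as its reverse complement in Creld2 and Derl3.
Hspa5, chr2:34772013-34772055, plus strand: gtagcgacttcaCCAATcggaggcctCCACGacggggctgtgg
Dnajc3, chr14:118937815-118937857, plus strand: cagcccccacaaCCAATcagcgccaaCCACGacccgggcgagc
Pdia6, chr12:17266479-17266521, plus strand: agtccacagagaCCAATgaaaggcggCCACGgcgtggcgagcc
Creld2, chr15:88819508-88819550, plus strand: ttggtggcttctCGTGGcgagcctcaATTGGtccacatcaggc
Derl3, chr10:75893230-75893272, plus strand: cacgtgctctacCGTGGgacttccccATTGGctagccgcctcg
Syvn1, chr19:6046520-6046562, plus strand: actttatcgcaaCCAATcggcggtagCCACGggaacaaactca
Canx, chr11:50325788-50325830, minus strand: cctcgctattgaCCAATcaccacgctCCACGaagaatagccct

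With nearly all of these genes called higher, the calls could not show whether the element went with a rise. Over the 4 ER lists, 8 of the 9 tested genes with a match were called higher (median 2.68), and 93 of the 95 genes with a promoter and no match were as well (median 1.72). The remaining gene with a match was Canx, which was not called. A second element, searched as TGACGTGG (UPRE, both strands), was in 7 of 33 ER to Golgi promoters (21.2%) and 0.714% of all. It was in 2 of 29 promoters of the unfolded protein response list (6.9%) and 2 of 18 of the degradation list (11.1%). None of the 26 promoters of the translocon and glycosylation list held it. In the 2 promoters of the whole table that held both elements, the matches overlapped. These are matches of letters in a window and not measured binding.

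ER-associated degradation, which exports misfolded proteins from the ER to the proteasome, rose in every member: 22 of 22 were called higher, with a median of 2.02. Derl3, a channel component that is characteristic of secretory cells, had 14.1, 15.6 and 14.3 CPM in D6 and 399.6, 387.5 and 395 CPM in IgE PC (4.75 ± 0.18). Herpud1, which assembles the complex (3.83), Edem1, which marks glycoproteins for removal (3.18), and the ligase subunits Sel1l (3.12) and Syvn1 (2.39) rose. All 22 members were also called higher in IgE PC than in IgG1 PC, where 58.1% of all genes were called and 27.4% were called higher. When TPM values were tested, 14 were called higher and 4 lower.

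The machinery that brings proteins into the ER and attaches sugars showed 34 of 35 members higher, with a median of 1.79. Tram2, which assists translocation, rose from 31.6 to 33.9 CPM to 638 to 662 CPM (4.32 ± 0.07). The channel subunit Sec61a1 (2.05) and the associated Ssr4 (2.5) rose as well. Tusc3, an oligosaccharyltransferase subunit, was the member that fell, from 18.8 to 21.5 CPM to 10.1 to 11.1 CPM (-0.91), while Magt1, its alternative in the same complex, rose by 2.07.

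Of 38 genes of transport between the ER and the Golgi, 36 were called higher and 1 lower, with a median of 1.42. Sec24d, a coat subunit that selects cargo, led with 50.8 to 56.5 CPM in D6 and 571.5 to 609 CPM in IgE PC (3.46 ± 0.08). Lman1, a cargo receptor, rose by 2.35. From D6 to IgE iGC, in which 69.1% of all genes were called, the medians of the 4 ER lists were -0.74, -0.07, -0.58 and -0.56 in the order given here, and those of IgE PC minus IgE iGC were 2.99, 1.9, 2.38 and 1.93.

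**Figure D3:**
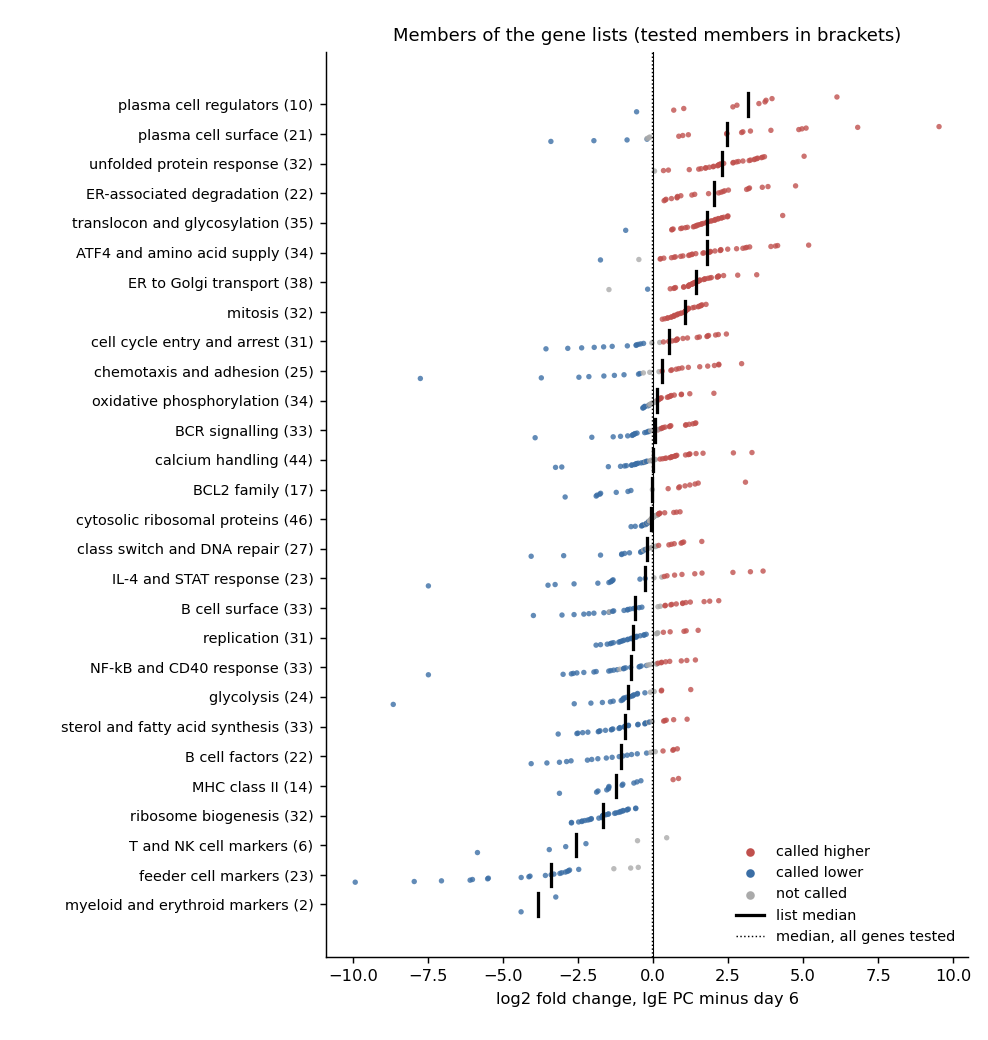
Log2 fold change (IgE PC minus D6, horizontal axis) of every tested member of 28 gene lists, 1 row per list; red and blue mark members called higher and lower, thick bars the list medians and the dotted line the median of all genes. The ER lists and mitosis lie to the right of the line with few exceptions, and ribosome biogenesis and the feeder markers lie to its left.

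The ATF4 pathway, which raises amino acid import and synthesis when translation is restrained, was higher in 32 of 34 members, with a median of 1.78. Atf4 itself rose from 182 to 192 CPM to 887 to 896 CPM (2.26 ± 0.09). Trib3, a pseudokinase induced by ATF4, had 7.47, 8.25 and 7.18 CPM in D6 and 131, 135 and 141 CPM in IgE PC (4.15 ± 0.17). Chac1, which degrades glutathione (5.19), the glycine transporter Slc6a9 (4.08), the cystine transporter Slc7a11 (3.08), Ddit3, which encodes CHOP (2.24), and asparagine synthetase Asns (1.43) also rose. Atf3, a stress-induced repressor, fell (-1.75), and Nupr1 was not called (-0.47, adjusted p = 0.202). Nupr1 was called lower with total count scaling (-1.01), on TPM values (-1.26) and in a fit to D6 and IgE PC alone (-0.455, adjusted p = 0.0123).

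This list stood further from IgG1 PC than the ER lists did by their medians, with a median difference of 1.32 against 0.85 for the unfolded protein response. Of its 34 members, 33 were called higher in IgE PC than in IgG1 PC, as were 27.4% of all genes. Slc7a11 was 3.45 CPM in IgG1 PC and 29.2 CPM in IgE PC (3.06 higher, adjusted p = 5.61e-09), and Trib3 17.6 against 136 CPM (2.95 higher, adjusted p = 1.94e-09). From D6 to IgG1 PC, in which 71.9% of all genes were called, Asns and Slc7a11 changed by -0.05 and 0.02.

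B cell identity factors fell: 16 of 22 were called lower and 4 higher, with a median of -1.06. Pax5, which maintains B cell identity, went from 633, 599.5 and 639 CPM to 139.7, 145 and 126 CPM (-2.19 ± 0.16). Spib (-3.54), Ciita (-3.12), Bcl11a (-2.73), Bcl6 (-1.84) and Bach2 (-1.36), which act in B cell or germinal centre programmes, fell with it. The 4 called higher were Tcf3, Pou2f2, Ets1 and Foxo1, at 0.33 to 0.81, and on TPM values they turned to between -0.075 and -0.52. With total count scaling Tcf3 was -0.20, and the calls of Ets1 (0.15) and Pou2f2 (0.13) were lost.

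MHC class II presentation was lower in 12 of 14 members, with a median of -1.25. Ciita, its master regulator, had 406, 326 and 342 CPM in D6 and 42.2, 45.4 and 36.0 CPM in IgE PC. The peptide-exchange chain H2-DMb2 (-1.88) and the alpha chain H2-Aa (-1.03) fell. Cd74, the invariant chain, was called higher, 4379 to 5261 CPM against 7414 to 7564 CPM (0.67 ± 0.08), but was 0.14 with total count scaling (adjusted p = 0.0607) and -0.21 on TPM values. In IgE iGC 12 of the 14 were called higher than in D6, as were 32.8% of all genes. All 14 were lower in IgE PC than in IgG1 PC, as were 30.7% of all genes.

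B cell surface molecules divided, 18 of 33 lower and 12 higher (median -0.60). The inhibitory receptor Lilrb4a (-3.99), Cd72 (-3.03), and the low-affinity IgE receptor Fcer2a (-2.63) fell, whereas Cd24a (1.89) and Fcrla (1.70) rose.

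The B cell receptor signalling list showed no common direction, with 14 of 33 members higher, 15 lower and a median of 0.06 (6 higher and 22 lower with total count scaling). The adaptor Blnk rose from 134 to 143 CPM to 358 to 398 CPM (1.43 ± 0.07), and the adaptor Bank1 (1.40), Rasgrp3 (1.33) and the kinase Fyn (1.08) rose. Lck, a kinase better known from T cells, fell from 8.92 to 9.88 CPM to 0.523 to 0.663 CPM (-3.93 ± 0.15), and Rasgrp1, which activates RAS, by 2.04. The receptor's signalling chains Cd79a (0.40) and Cd79b (0.59) were called higher, yet were -0.13 and 0.06 with total count scaling and -0.49 and -0.29 on TPM values. Fyn changed by -0.07 from D6 to IgG1 PC and was 1.15 higher in IgE PC than in IgG1 PC (adjusted p = 7.27e-10).

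Calcium handling, the subject of the study's title, was likewise mixed: 20 of 44 members were higher and 18 lower, with a median of 0.00 (12 higher and 26 lower with total count scaling). Among entry and release genes the change was largest for Saraf, which inactivates store-operated entry, from 27.0, 29.9 and 30.8 CPM to 282, 283 and 297 CPM (3.30 ± 0.11). The potassium channels Kcna3 (1.67) and Kcnn4 (1.43), which sustain the driving force for calcium, rose, as did the leak channel Tmco1 (1.23) and the ER release channel Itpr2 (1.18; 0.11 on TPM values, adjusted p = 0.5). Stim1, the ER calcium sensor, was called higher (0.74) and was -0.22 on TPM values, and the pore Orai1 was not called (-0.25, adjusted p = 0.0687). Orai1 was called lower with total count scaling (-0.78), on TPM values (-1.03) and in a fit to D6 and IgE PC alone (-0.24, adjusted p = 0.0052). The ATP-gated channel P2rx7 fell from 3.22 to 3.68 CPM to 0.284 to 0.453 CPM (-3.25 ± 0.23).

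Among pumps, buffers and calcineurin genes, the ER pump Atp2a2 rose (1.21) and the plasma membrane pumps Atp2b1 (-0.57) and Atp2b4 (-0.95) fell. Ppp3cc, a catalytic subunit of calcineurin, rose from 39.4 to 40.4 CPM to 254 to 258 CPM (2.68 ± 0.06), while Nfatc1 (-0.20), Nfatc2 (-0.49) and the feedback inhibitor Rcan1 (-0.72), which are downstream of calcineurin, fell. The call of Nfatc1 was lost with scaling without immunoglobulin genes (-0.109, adjusted p = 0.124) and without IgE PC replicate 3 (-0.122, adjusted p = 0.145). Ryr2 (ENSMUSG00000021313, GRCm38 chr13:11553102-12106945, minus strand), the ryanodine receptor of cardiac muscle, lay outside the list and was among the 15 largest falls. It had 24.5, 19.5 and 18.2 CPM in D6 and 2 counts in the IgE PC libraries together, a ratio of 989 with a 95% counting interval from 274 to 8170. IgE iGC held 2.80 CPM and IgG1 PC 0.493 CPM.

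In the BCL2 family, which sets the threshold for apoptosis, 8 of 17 members were higher and 8 lower. Of the survival genes, Bcl2 rose from 85.7, 80.4 and 68.9 CPM to 238, 214 and 215 CPM (1.5 ± 0.08), Bcl2l2 by 1.40 and Mcl1 by 1.23. Bcl2l1, which encodes BCL-XL (-1.23), and Bcl2a1b (-1.9) fell; Bcl2a1b is 1 of several near-identical copies and had fractional counts in all 15 libraries. Of the genes that promote death, Bmf rose (3.08) and Pmaip1, which encodes NOXA, fell (-2.93). Bcl2 was 1.21 higher and Bcl2l1 1.24 lower than in IgG1 PC (adjusted p = 1.24e-08 and 1.8e-08). Bcl2l11, which encodes BIM, was 0.85 higher than in D6, but -0.22 on TPM values.

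Genes of DNA replication and of mitosis moved in opposite directions. Of 31 replication genes, 23 were lower and 5 higher (median -0.66). Of 32 mitosis genes, all were called higher (median 1.06); under total count scaling 23 were higher and 1 lower, and on TPM values 9 and 3. Mcm3, a subunit of the replicative helicase, fell from 158 to 165 CPM to 58.6 to 65.6 CPM (-1.39 ± 0.07), and Uhrf1, which maintains DNA methylation, from 179.7 to 190.2 CPM to 49.2 to 51.2 CPM (-1.9 ± 0.08). Tk1 (1.5), Cdt1 (1.10) and Cdc45 (1.03) were exceptions. Mki67, the proliferation marker, rose from 409.9, 412 and 433 CPM to 1370, 1436 and 1461 CPM (1.77 ± 0.10).

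Against IgE iGC the mitosis genes were not higher, with 5 of 32 called higher and 17 lower (of all genes 64.1% were called, 30.5% higher and 33.6% lower) and a median of -0.27, whereas 26 of 31 replication genes were lower. Against IgG1 PC, 30 of 31 replication genes were called lower in IgE PC, as were 30.7% of all genes. As shares of all counts, replication genes took 0.253% ± 0.0018 in D6 and 0.108% ± 0.0029 in IgE PC, and mitosis genes 0.176% ± 0.0038 and 0.291% ± 0.0214 (n = 3 each; exact permutation p = 0.1 for both, the smallest possible).

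**Figure D4:**
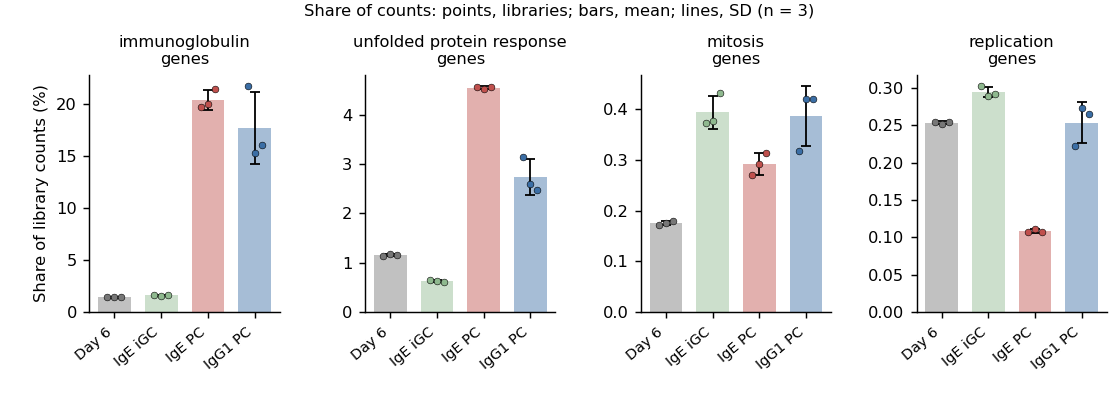
Share of each library's counts (%) in 4 gene groups, with libraries as points, means as bars and SD as lines (n = 3 per group). Replication genes are lowest in IgE PC, at 0.108%, whereas the mitosis genes of IgE PC lie between D6 and IgE iGC.

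The promoters of both lists were read in the same windows for an E2F element, TTTCGCGC, and for the cell cycle homology region (CHR), TTTGAA, on both strands. E2F letters were in 7 of 25 replication promoters (28%), 3.7% of the mitosis promoters and 0.374% of all. CHR letters were in 21 of 27 mitosis promoters (77.8%), 16% of the replication promoters and 20.2% of all. The stretches show the element, in capitals, in 2 genes that fell and 3 that rose; it reads as its reverse complement in Mcm6.
Uhrf1, chr17:56304116-56304147, plus strand: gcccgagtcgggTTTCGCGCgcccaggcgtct
Mcm6, chr1:128359792-128359823, minus strand: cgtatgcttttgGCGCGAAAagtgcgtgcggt
Mki67, chr7:135716478-135716507, minus strand: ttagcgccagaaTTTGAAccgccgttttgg
Cdc20, chr4:118437344-118437373, minus strand: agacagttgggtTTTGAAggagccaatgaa
Ncapg, chr5:45669883-45669912, plus strand: ccgcgatagttgTTTGAAaactctggcgct
Uhrf1 and Mcm6 fell by 1.9 and 1.06, and Mki67, Cdc20 and Ncapg rose by 1.77, 1.59 and 1.60. All 32 mitosis genes were called higher, so the calls could not show whether CHR letters went with a rise. Of 31 replication genes 23 were called lower, and most promoters of that list held no E2F letters. Whether either element went with the direction of change was not tested. These too are matches of letters and not measured binding.

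Among the cell cycle entry genes, several that drive entry fell and several inhibitors rose. Cdk6 (222.7 to 232 CPM against 30.1 to 33 CPM, -2.84), Ccnd3 (-2.38) and Myc (-1.36) fell, and Cdkn1b, which encodes the inhibitor p27, rose from 24.7 to 26.7 CPM to 126 to 155 CPM (2.44 ± 0.07). The MYC antagonists Mxd1 (2.18) and Mxd4 (2.08) and the retinoblastoma gene Rb1 (1.47) rose. Cdkn1a, which encodes the inhibitor p21, was an exception (-1.96), and Ccnd1 fell by 3.57. In all, 17 of 31 members were higher and 12 lower (11 and 14 with total count scaling).

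Ribosome biogenesis was lower in 32 of 32 members, 26 of them at least 2-fold, with a median of -1.67. Ncl, which encodes nucleolin, fell from 1939, 2025 and 2104 CPM to 615, 615.5 and 647 CPM (-1.69 ± 0.08), and the small nucleolar RNA protein genes Nop56 and Rrp9 fell by 2.27 and 2.72. Genes of the ribosomal proteins themselves did not share this: 8 of 46 were called higher and 14 lower, with a median of -0.07, although 43 were lower with total count scaling. In IgE iGC all 32 biogenesis genes were also lower than on day 6 (36.3% of all genes), with a median of -1.08.

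Several genes of cytosolic chaperones, which no list covered, were named for their abundance or their fall. Hspa8, the constitutive HSC70, was among the 10 most abundant transcripts of D6 at 5031, 4877 and 4852 CPM and fell to 606, 599 and 561 CPM in IgE PC (-3.06 ± 0.06). Hsp90aa1 fell from 2557 to 2635 CPM to 229.7 to 245 CPM (-3.46) and Hsp90ab1 by 1.77. The inducible copies Hspa1a (-7.80) and Hspa1b (-6.59) were among the 15 largest falls, at 35.6 to 39.7 and 73.3 to 81.3 CPM in D6 and under 1 CPM in every IgE PC library. They are near-identical to each other and had fractional counts in 14 and 15 libraries. Hspa1a and Hspa1b were also lower in IgE iGC than in D6, by 6.75 and 6.42.

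Glycolysis genes were lower in 19 of 24 (median -0.83), including lactate dehydrogenase Ldha, from 406 to 413 CPM to 145 to 158 CPM (-1.42), and the lactate exporter Slc16a1 (-2.07). Ldhb, with 170 counts in D6 and 0 in IgE PC, was at least 42.7-fold lower against a floor of 3 counts over the group. Sterol and fatty acid synthesis was lower in 26 of 33 (median -0.94), with Idi1 (-2.54), Fasn (-1.80) and Hmgcs1 (-1.76) as examples. Oxidative phosphorylation stayed near the background, 15 of 34 higher and 7 lower (median 0.13; 4 and 24 with total count scaling), with Ndufa1, a subunit of complex I, as its largest change (2.03).

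Targets of CD40 and NF-kB signalling were lower in 20 of 33 members (median -0.75). Ccl22 (ENSMUSG00000031779, GRCm38 chr8:94745590-94751699, plus strand), a chemokine that attracts T cells, had 924, 1192 and 1203 CPM in D6 and 5.52, 6.44 and 6.59 CPM in IgE PC (-7.49 ± 0.26, adjusted p = 3.89e-12). It stood at 74.0 CPM in IgE iGC and 236 CPM in IgG1 PC, and IgE PC was lower than both. Traf1, an NF-kB target (-2.54), Cd40 itself (-2.31) and the subunit Nfkb2 (-1.41) fell. In IgE iGC, 18 of the 33 members were called higher than in D6 and 9 lower (of all genes 32.8% and 36.3%). The log2 changes of Cd40, Nfkb2 and Ccl22 from D6 to IgE iGC were 0.33, 0.04 and -3.90. The part that feeder withdrawal has in these changes was not tested.

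Of 23 genes of the IL-4 response, 12 were lower and 9 higher. Il4i1, an amino acid oxidase induced by IL-4, fell from 458 to 465 CPM to 34.2 to 45 CPM (-3.50 ± 0.11), and Stat6, the factor that carries the IL-4 signal, by 1.41. The survival kinase genes Pim2 (3.67) and Pim1 (3.25) rose, Pim2 from 19.0 to 21.4 CPM to 251 to 263 CPM, with fractional counts in 15 libraries.

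Homing and adhesion genes were mixed, 13 of 25 higher and 9 lower. Cxcr4, the receptor for the bone marrow chemokine CXCL12, rose from 43.3, 46.1 and 43.7 CPM to 104, 100.2 and 96.6 CPM (1.18 ± 0.11), and was 1.23 higher than in IgG1 PC (adjusted p = 3.76e-07). Selplg (2.04), Ccr10 (1.82) and Itga4 (2.95) rose. The laminin-binding integrin chain Itga6 fell from 36.2 to 38.6 CPM to 2.53 to 3.21 CPM (-3.72). Ccr7, which guides cells to T cell zones, fell to 4.81 to 5.31 CPM from 14.6 to 16.9 CPM (-1.64 ± 0.14).

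Of the class switch and repair genes, 12 of 27 were lower and 8 higher (median -0.20). Ung (-1.75) and Apex1 (-2.98), which act in the excision of uracil from DNA, fell, and the end-joining ligase Lig4 rose (1.62).

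Markers of other cells moved with the comparison. The 26 fibroblast genes of the feeder list summed to 559, 898 and 907 CPM (here on unscaled library totals) in D6 and to 39.1, 39.9 and 23.6 in IgE PC; 20 of the 26 reached 1 CPM in each D6 library, and 6 to 11 did in IgE PC. Postn had no count in any of these libraries. Of 23 tested, 20 were called lower (median -3.40), among them Thbs1, from 108 to 176 CPM to 2.30 to 4.33 CPM (-5.51), and Col1a1, from 88.9 to 147 CPM to 7.98 to 14 CPM (-3.40). T and NK cell markers summed to 9.75 to 11.4 CPM in D6 and 1.96 to 2.27 in IgE PC, and myeloid and erythroid markers to 3.13 to 3.44 and 0.170 to 0.453.

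**Figure D5:**
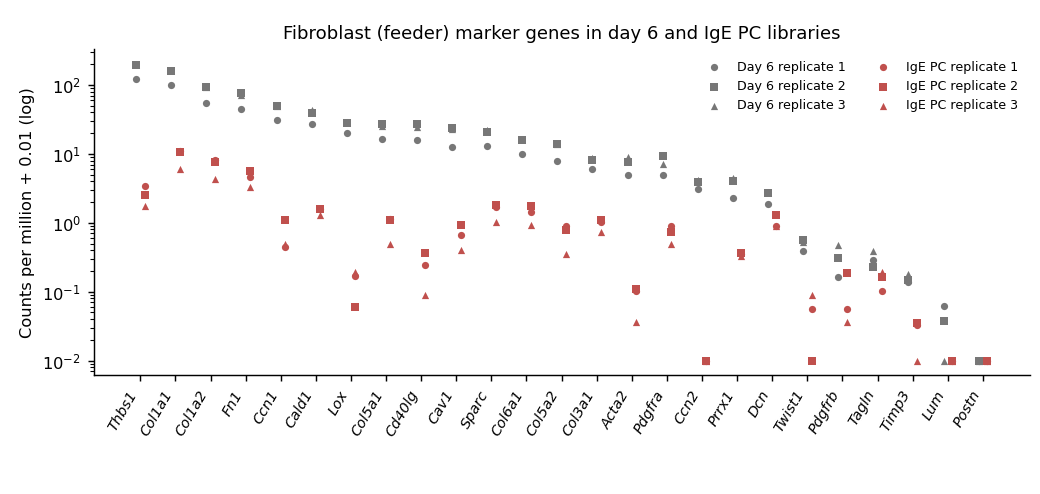
Level of the fibroblast marker genes of the feeder list, 1 of them not shown (CPM on unscaled library totals + 0.01, log axis) in the 3 D6 libraries (grey) and the 3 IgE PC libraries (red), ordered by their D6 mean. Most genes are higher in every D6 library, and D6 replicate 1 lies below the other 2.

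Of the 15 largest falls outside antibody genes, 3 are on the feeder list, among them the collagen cross-linker Lox (-7.05) and Cd40lg (-6.10), the ligand that the feeder cells carry. D6 replicate 1 held 62% of the mean feeder sum of the other D6 libraries, and 71.8% and 61.8% of their level of Lox and Cd40lg. The growth factor genes Ereg and Inhba, off the list, stood at 62.5% and 74.8%, and Ccnd1 and S100a6 at 58.8% and 67.9%. Ccl22 stood at 77.2% of the other D6 libraries and the interleukin-1 decoy receptor Il1r2 at 76.6%. Tcf7 (-6.99), a factor best known from T cells, stood at 104% and Ryr2 at 130%. The prostacyclin receptor Ptgir (-6.25) stood at 144% and the phosphatase gene Ubash3b (-5.83) at 124%. Each percentage rests on a single library of D6, and differences between genes were not tested. The part that feeder RNA has in these falls was not tested, and in bulk samples fewer cells of a type and less RNA per cell cannot be told apart.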

How the data were processed

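PolyA RNA libraries were strand-specific, 76 bp single-end reads, per the labels' protocols. The submitters' processing notes name cutadapt 1.9.1, STAR 2.5.2a, RSEM 1.3.0, DESeq2 1.12.3 and the build GRCm38; the annotation is not given in the sources used here. The authors deposited 1 table of 51912 gene identifiers with RSEM expected counts, which divide shared reads among genes, and TPM values per library, per the file headers; TPM is used only as an alternative. Symbols matched 51633 identifiers; coordinates are from GENCODE vM21 and promoter sequences from RefSeq (GRCm38.p6), which held 27025 genes.

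Expected counts were rounded, filtered with filterByExpr (minimum count 10, minimum total 15), scaled by TMM and fitted with edgeR 4.0.16 (R 4.3.3; glmQLFit, robust; 1 mean per group, all 15 libraries, 10 residual degrees of freedom, biological coefficient of variation 10.4%). Libraries of IgE PC had TMM factors of 0.764 to 0.800 and those of D6 1.13 to 1.15. Standard errors are the log2 fold change divided by the square root of F. P-values were adjusted over all genes tested. Shares were compared by exact permutation tests (scipy 1.17.1). The script was tested on simulated counts. Where all libraries of a group had 0 counts, folds are against a floor of 3 counts over the group, or are not given.

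The genes named are the antibody constant genes, the 15 largest rises and falls (called, at least 10 CPM in a group, no overlap of libraries, no pseudogenes, predicted genes or receptor segments), genes among the 10 most abundant, and members of the 28 lists as examples of a role. The comparison, lists and rules were chosen with earlier results of these data known. Lists were described by counts and medians, with no set test. Alternatives were DESeq2 1.42.0, total count scaling, scaling without immunoglobulin genes, no filter, only D6 and IgE PC, the replicate number as a block, limma 3.58.1 on log2(TPM + 1), and leaving out each library. Some genes are not reported here.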

Additional observations from a re-analysis of the deposited data

Results flagged for a closer look

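Ccr7, the chemokine receptor that guides lymphocytes to T cell zones, changed in opposite directions in the plasma cells of the 2 isotypes. It was lower than in D6 in IgE PC (-1.64 on the log2 scale) and higher than in D6 in IgG1 PC (1.61). The difference between the isotypes was itself tested with edgeR and was -3.25 (adjusted p = 2.37e-10), with 4.81 to 5.31 CPM in the 3 IgE PC libraries and a mean of 48.5 CPM in IgG1 PC. Both changes share the D6 libraries.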

How the results depend on the processing

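The results moved most with the test on TPM values, which changes test, unit and scaling together, and next with total count scaling. With total count scaling 3311 genes were called higher, 1654 of them at least 2-fold. On TPM values (limma) 2114 were called higher, 10420 lower and 808 at least 2-fold higher. Of the calls shared with the edgeR result, 712 and 1753 had the opposite sign under these settings. Members called higher under total count scaling numbered 12 for calcium handling, 11 for cell cycle entry and arrest and 4 for oxidative phosphorylation, and members called lower 43 for ribosomal proteins and 20 for class switch and repair. On TPM values, members called higher numbered 14 for ER-associated degradation, 7 for calcium handling, 4 for the BCL2 family, 9 for mitosis, 9 for cell cycle entry and arrest, 2 for oxidative phosphorylation and 7 for chemotaxis; called lower were 26 of B cell receptor signalling, 44 ribosomal proteins and 21 of class switch and repair. Ribosomal proteins called lower numbered 7 when the scaling left out immunoglobulin genes and 9 without IgE PC replicate 3, against 14. Reversed to a negative log2 value with total count scaling were Tcf3 (-0.20), Canx (-0.49) and Cd79a (-0.13). On TPM values the reversed genes were Cd74 (-0.21), Ets1 (-0.27), Foxo1 (-0.075), Tcf3 (-0.52), Pou2f2 (-0.24), Canx (-0.69), Cd79a (-0.49), Cd79b (-0.29), Stim1 (-0.22) and Bcl2l11 (-0.22). The difference in immunoglobulin share was 37.68 points of TPM and 15.15 points for constant regions and Jchain. The cause of these shifts was not tested.

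DESeq2 called 11904 genes, 11824 of them shared, and leaving out 1 library at a time called 11509 to 11691 genes; ribosomal proteins called lower were then 9 to 11, and the immunoglobulin difference 18.44 to 19.31 points. Same-numbered libraries of D6 and IgE PC deviated from their group means with correlations of -0.10, 0.00 and -0.03, so the numbers were not taken as pairs. A replicate block gave 11928 calls; 11843 of these were also made without it, 0 with the opposite sign. A fit to D6 and IgE PC alone called 12278 genes, and one without the count filter 12432 of 28952. Genes under about 1 CPM rest on few counts, and a group at 0 gives at most a bound.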

Other observations

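The 4 genes with the largest fitted falls from D6 to IgE PC lie outside the naming rule and were singled out after their values were seen. The first 2 are pseudogenes. Gm28439, an unprocessed pseudogene, stood at 128 ± 25.7 CPM in D6 (SD, n = 3) and had 0 counts in every library of the other 4 groups. Rpl10-ps1, a processed pseudogene of a ribosomal protein gene, stood at 95.4 ± 14.2 CPM in D6, at 42.5 ± 51.8 CPM in IgE iGC and at 0 in IgE PC and IgG1 PC; its counts were fractional in 8 of the 15 libraries, and the standard error of its change was 5.33. Plxdc2 and Nup62cl, which are protein-coding, had 3.36 ± 0.16 and 3.64 ± 0.21 CPM in D6 and 0 counts in IgE PC.

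Mitochondrially encoded transcripts took 2.58% ± 0.164 of the counts in D6, 2.68% ± 0.164 in IgE iGC and 1.86% ± 0.0212 in IgE PC (n = 3 each). IgG1 PC was lower still, at 1.42% ± 0.293. The difference of IgE PC from D6 was -0.72 percentage points (exact permutation p = 0.1, two-sided, the smallest that 3 against 3 allows). These are shares of all counts, of which immunoglobulin genes took 1.43% in D6 and 20.42% in IgE PC. A larger immunoglobulin share lowers every other share, and whether the mitochondrial share fell apart from this was not tested.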
